A study of Bos taurus with 30 samples.

Results

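The striated muscle miRNAs are the rows of the deposited testis table named miR-1, miR-133, miR-206, miR-208 or miR-499, with any letter or arm. The rule found 8 of the 1030 bovine miRNAs: miR-1, miR-133a, miR-133b, miR-133c, miR-206, miR-208a, miR-208b and miR-499. Names are those of the table, with the species prefix dropped. The study sequenced small RNA in testes of Holstein-Friesian bull calves fed a High diet (15 calves) or a Moderate diet (15 calves), with a library for each calf, to ask how early feeding bears on testicular miRNAs. The High diet was 1.5 kg of milk replacer in 10 L daily plus concentrate without limit, and calves were meant to gain 1.0 kg daily. The Moderate diet was 0.5 kg of milk replacer in 4 L daily plus 0.5 kg of concentrate, and calves were meant to gain 0.5 kg daily. Feeding began at 2 weeks of age for both diets, and all testes were collected at 12 weeks.

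miRNAs are short RNAs that pair with mRNAs and lower their translation and stability. The members form 2 groups, known mostly from mouse and human muscle. miR-1 with miR-133a, and miR-206 with miR-133b, are each made from a shared primary transcript switched on by muscle transcription factors. miR-1 and miR-206 promote differentiation of muscle cells, and miR-133 acts on their proliferation and on serum response factor. miR-208a, miR-208b and miR-499 lie in introns of myosin heavy chain genes and act in heart muscle and in the slow fibre programme. In the RefSeq gene table of the bovine assembly ARS-UCD2.0, a miR-133a gene neighbours each of the 2 miR-1 genes and MIR133B neighbours MIR206. MIR208A lies within MYH6, MIR208B within MYH7 and MIR499 within MYH7B. MIR133C overlaps MIR133A-1. No member held fractions of a read, and how counting assigned reads between these 2 miRNAs was not tested. The members have names in that table, and no mature sequences are printed here.

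Levels are the deposited values, reads per megaread of a library size scaled by trimmed means (TMM-scaled CPM), in which most low values are whole multiples of what 1 read is worth. Libraries held 6.0003 to 19.98 megareads, 24 of them fewer than 12. Moderate replicate 5 stood apart: miR-10b took 84.8% of its reads, and 1 read is worth more in it than in any other library because its scaling factor is the smallest. The diet comparisons of the tested members are therefore given with and without it. Diet is the diet characteristic of the labels, and the sample codes in the labels end in H for High and L for Moderate to match it. By contrast, 18 of the 30 sample titles name the other diet. The gonadal miR-202, named to check the testis label, was present throughout at 1904 to 2672 in High and 1055 to 3282 in Moderate libraries. The liver miRNA miR-122 was highest at 2.84.

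Striated muscle miRNAs took few of the reads in these libraries, and the 2 that most define the group were listed at 0. miR-1 and miR-206 had a value of 0 in all 30 libraries, over 307 megareads. In all, 192 of the 1030 miRNAs were at 0 throughout, these 2 included. If these zeros are counts, an upper limit of 3 reads allows a level of up to 0.138 to 1.43 per library, counting error only. All members together took 5521 reads, 0.00180% of the total. miR-133a held 58.3% of them with 3219 reads, miR-499 held 32.7% with 1805 and miR-133b 7.53% with 416. miR-208b had 73 reads, miR-208a 7 and miR-133c 1. Of the 1030 miRNAs, 838 were above 0 in at least 1 library. Ranked by mean level among the 1030 miRNAs, miR-133a was number 234, miR-499 number 269 and miR-133b number 373. Mature miRNAs are of similar length, so reads were not corrected for length. How evenly the libraries captured different miRNAs was not tested, so these shares and ranks describe reads and not amounts in the tissue. The table lists the partners miR-133a and miR-133b without miR-1 and miR-206, and how reads of miR-1 and miR-206 were assigned by the authors was not tested.

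**Figure D1:**
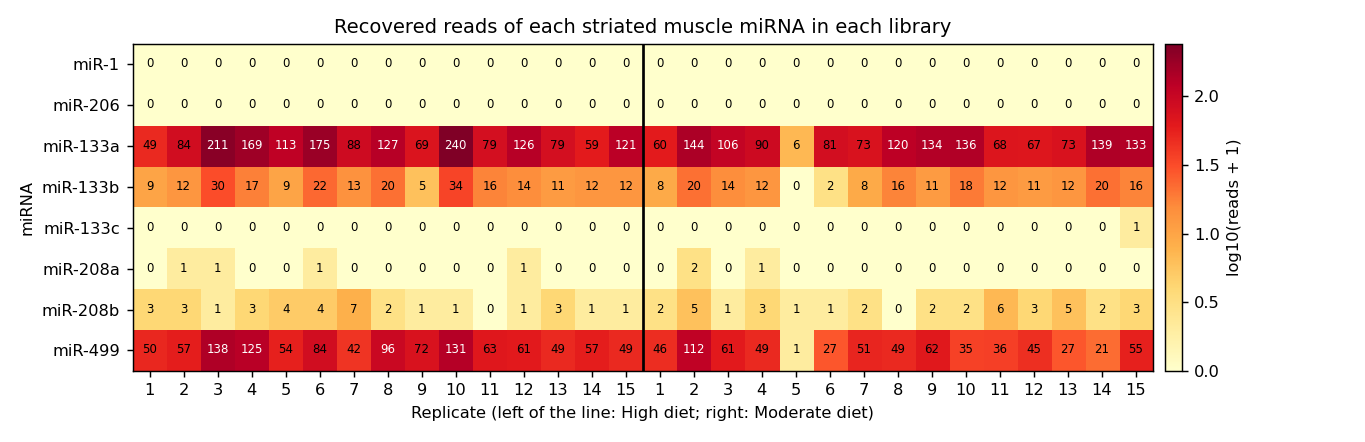
Recovered reads of each of the 8 miRNAs (rows) in each library (columns; High diet left of the line, Moderate diet right of it), with colour giving log10(reads + 1). miR-1 and miR-206 are at 0 throughout, miR-133a and miR-499 are present in every library, and Moderate replicate 5 has 6 reads of miR-133a and 1 of miR-499.

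Detection, a value above 0, divided the members. miR-133a and miR-499 were detected in all 30 libraries. miR-133b was detected in all 15 High and in 14 of 15 Moderate libraries, the exception being Moderate replicate 5. miR-208b was detected in 14 of 15 High and 14 of 15 Moderate libraries, with 0 to 7 reads in each High and 0 to 6 in each Moderate library. miR-208a, the heart muscle member hosted by MYH6, was detected in 4 High and 2 Moderate libraries, at 1 or 2 reads each. miR-133c was detected in 0 High libraries and 1 Moderate library, as a single read. Fisher's exact test over the 428 miRNAs detected in 1 to 29 libraries gave an adjusted p of 1 for miR-133b, miR-133c, miR-208a and miR-208b, and unadjusted p-values of 1, 1, 0.651 and 1 in that order. It called 0.0% of the 428, with 7 at an unadjusted p under 0.05. Without Moderate replicate 5 the adjusted p of miR-133c, miR-208a and miR-208b was also 1, and miR-133b was in all 29 libraries. A difference in the detection of miR-208a or miR-133c was not detectable at this depth.

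With detection set at a level of 1 read in the shallowest library, miR-208b passed in 7 of 15 High and 12 of 15 Moderate libraries (Fisher's exact test p = 0.128, adjusted p = 1). This limit asks for different read counts in different libraries. Moderate replicates 5 and 6 passed it with 1 read each, while High replicate 4 missed it with 3 reads. With detection set at 3 reads or more, miR-208b passed in 7 of 15 High and 6 of 15 Moderate libraries. Its level was 0 at the lowest, 0.151 at the median and 0.802 at the highest in High libraries, and 0, 0.248 and 0.760 in Moderate libraries. These levels stand for a few reads each, and the diets overlapped over nearly the whole range.

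For the comparison of levels, 3 of the 8 members reached a level of at least 1 in at least 15 libraries, the filter for the test: miR-133a, miR-133b and miR-499. The other 5 got no fold change. Of the 387 miRNAs tested in limma, 19 (4.91%) passed an adjusted p of 0.05, with 2.33% higher and 2.58% lower in High libraries, and 0 of the 3 members did. At an unadjusted p under 0.05, where 21.2% of all tested miRNAs stood, miR-499 was the 1 member. In bulk testis, fewer cells of a type and less RNA per cell cannot be told apart.

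miR-499, the member hosted by MYH7B, had the largest diet difference of the 3. Its level ran from 4.66 through a median of 6.68 to 8.39 in High libraries, and from 0.476 through a median of 4.56 to 7.33 in Moderate libraries. The Moderate median was exceeded by all 15 High libraries, 6 High libraries lay above every Moderate library and 8 Moderate libraries lay below every High one, while the ranges overlapped. The mean level was 6.62 ± 1.24 in High and 4.60 ± 1.62 in Moderate libraries (SD, n = 15 each). The log2 fold change, High minus Moderate, was 0.57 (standard error 0.19, 95% confidence interval 0.19 to 0.96), or 1.49-fold on the log2(level + 0.5) scale. Its adjusted p of 0.0638 in limma missed the threshold, and it ranked number 26 of 387 by p. A two-sided permutation test of its mean log2 level alone gave p = 0.000540, and p = 0.00136 without Moderate replicate 5, neither adjusted for the choice of this miRNA.

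Without Moderate replicate 5, which held 1 read of miR-499, the Moderate levels ran from 2.81 through a median of 4.83 to 7.33. The log2 fold change was then 0.41 (standard error 0.11) and passed in limma (adjusted p = 0.0127), where 11.7% of the 385 miRNAs tested passed. 13 of 15 High libraries lay above the Moderate median in that comparison. In 30 libraries miR-499 also passed in edgeR on the recovered reads (log2 fold change 0.48, adjusted p = 0.0344), which called 6.98% of the 387, and in DESeq2 (0.47, adjusted p = 0.00625), which called 13.4%. Without Moderate replicate 5 it passed in both as well, where edgeR called 13.2% and DESeq2 16.6% of the 385. With the diet of the titles it stood at -0.089 (adjusted p = 0.981 in limma), so the direction rests on the diet characteristic being the right label.

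miR-499 was compared within the sets of libraries that the labels or the depth define. In the 12 libraries whose title and diet characteristic give the same diet, the log2 fold change was 0.61 (adjusted p = 0.567 in limma), and it was 0.19 (adjusted p = 0.571) without Moderate replicate 5. In the 18 libraries whose labels differ, grouped by the diet characteristic, it was 0.55 (adjusted p = 0.131 in limma). The difference between those diet effects was -0.36 without Moderate replicate 5 (unadjusted p = 0.114, adjusted p = 0.974 in limma). Among the 24 libraries under 12 megareads the log2 fold change was 0.62 (adjusted p = 0.147 in limma). Without Moderate replicate 5 among them it was 0.44 and passed (adjusted p = 0.0308 in limma), where 8.09% of the 383 miRNAs tested passed. In the 6 deeper libraries the level was 7.88, 6.29, 4.66 and 6.02 in the 4 High and 5.71 and 3.71 in the 2 Moderate ones. The log2 fold change there was 0.37 (95% confidence interval -0.20 to 0.94, adjusted p = 0.636 in limma). All these log2 fold changes were positive.

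miR-133a, made in muscle together with miR-1, had similar levels on both diets. It ran from 7.50 through a median of 10.3 to 14.9 in High libraries, and from 2.85 through a median of 9.02 to 18.6 in Moderate libraries. The Moderate range enclosed the High one, with Moderate replicate 5 at its low end and Moderate replicate 14 at its high end. The mean level was 10.2 ± 2.11 in High and 10.4 ± 4.05 in Moderate libraries (SD, n = 15 each). The log2 fold change was 0.064 (95% confidence interval -0.27 to 0.40, adjusted p = 0.851 in limma), and -0.050 (-0.31 to 0.21) without Moderate replicate 5. Its sign thus differs between the 2 comparisons. Both intervals include 0, and a change of either sign within them is not excluded. A two-sided permutation test of the mean log2 level gave p = 0.730, and p = 0.711 without that library.

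miR-133b, the partner of miR-206, lay near the lower limit of the test with 0 to 34 reads per library. Its level ran from 0.582 through a median of 1.49 to 1.71 in High libraries, and from 0 through a median of 1.32 to 2.68 in Moderate libraries. The groups overlapped, as they did for miR-133a and miR-499, and over all 387 miRNAs tested 0.0% had groups without overlap. The log2 fold change was 0.16 (95% confidence interval -0.21 to 0.54, adjusted p = 0.658 in limma), and 0.043 (-0.26 to 0.35) without Moderate replicate 5. The permutation test gave p = 0.410, and p = 0.781 without that library. The spread was wider in Moderate libraries, with an SD of 0.690 against 0.352 in High libraries.

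**Figure D2:**
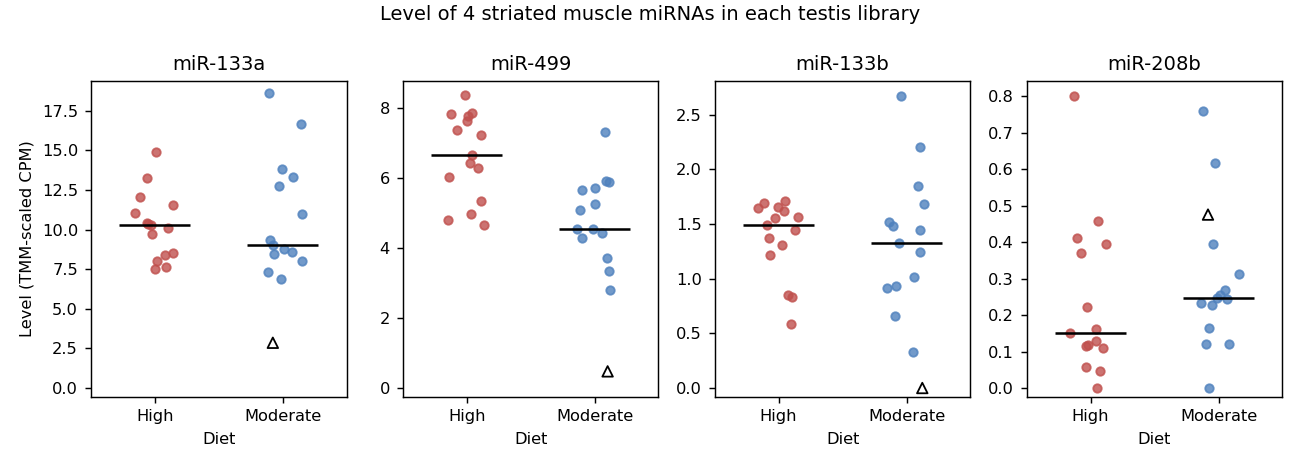
Level of 4 striated muscle miRNAs in TMM-scaled CPM (vertical axes, each with its own range) in each High library (left) and each Moderate library (right); bars are medians and the open triangle is Moderate replicate 5. The miR-499 median is 6.68 in High and 4.56 in Moderate libraries, and the ranges overlap in every panel.

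**Figure D3:**
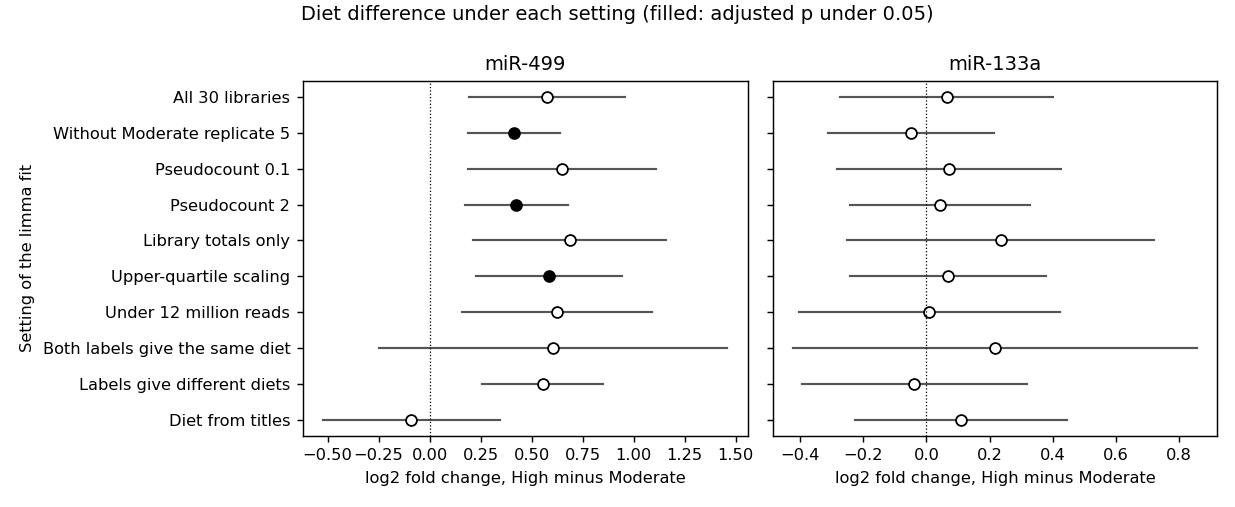
log2 fold change, High minus Moderate, of miR-499 (left) and miR-133a (right) under 10 settings of the limma fit, with 95% confidence intervals; filled points had an adjusted p under 0.05. The point estimate of miR-499 stays above 0 except with the diet of the titles, at -0.089 (interval -0.52 to 0.34). The miR-499 interval also includes 0 in the 12 libraries with matching title and diet characteristic (-0.25 to 1.46). Every interval of miR-133a includes 0.

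Whether the members moved together across libraries was examined for the 3 tested ones, as 3 pairs on log2(level + 0.5). miR-133a and miR-133b come from different primary transcripts in muscle. How the authors' counting assigned reads between these 2 miRNAs was not tested, and this bears on their correlation and on their shares of reads. Over 30 libraries Pearson's r was 0.69 (permutation p = 0.000110, adjusted p = 0.000330) and Spearman's rho 0.57 (permutation p = 0.00111, adjusted p = 0.00333). Without Moderate replicate 5, r was 0.47 (permutation p = 0.0108) and rho 0.53 (permutation p = 0.00397). Without the 2 libraries farthest from the median of miR-133a, Moderate replicates 5 and 14, r was 0.35 (permutation p = 0.0649), so the linear relation rests in part on those libraries. Within the diets r was 0.36 in High (permutation p = 0.185) and 0.76 in Moderate libraries (permutation p = 0.00168). The Moderate libraries with the highest miR-133a, replicates 14 and 10 at 18.6 and 16.7, also had the highest miR-133b, at 2.68 and 2.21.

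The share of miR-133b in the reads of miR-133a and miR-133b together was 11.4% over all libraries (416 of 3635 reads, 95% Wilson interval 10.4% to 12.5%, counting error only). It ran from 6.76% to 16.9% in High libraries, and from 2.41% to 15.0% in the Moderate libraries other than replicate 5, which had 0 of 6 reads. The lowest of these was Moderate replicate 6 with 2 of 83 reads (interval 0.663% to 8.37%), whose interval lies below that of all libraries together. The interval is not adjusted for choosing the lowest library. The miR-133a level of Moderate replicate 6, 13.3, was among the higher ones of the Moderate diet.

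miR-499 did not follow the miR-133 miRNAs. Its r with miR-133a was 0.43 over 30 libraries (permutation p = 0.0357, rho -0.059, permutation p = 0.753) but -0.24 without Moderate replicate 5 (permutation p = 0.205; rho -0.17, permutation p = 0.370). Its r with miR-133b was 0.52 over 30 libraries (permutation p = 0.0179, adjusted p = 0.0269; rho 0.25, permutation p = 0.189) but -0.0092 without that library (permutation p = 0.962). Both positive values over 30 libraries thus rest on Moderate replicate 5, which was lowest in all 3 miRNAs. In Moderate replicates 14 and 10, where miR-133a was highest, miR-499 was at 2.81 and 4.29, below the Moderate median.

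The miRNAs most like each tested member were taken from the other tested miRNAs by Pearson's r over the 29 libraries without Moderate replicate 5, as a description, since all levels of a library share its depth and scaling. For miR-133a these were miR-140, abundant in cartilage (r = 0.78, rho = 0.73), and the endothelial pair miR-126-3p (r = 0.68, rho = 0.73) and miR-126-5p (r = 0.67, rho = 0.66). The sum of miR-140 and miR-202, the cartilage and gonadal somatic list, had r of 0.23 with miR-133a over the same libraries (permutation p = 0.237; rho 0.097, permutation p = 0.614). miR-133b ranked number 13 in likeness to miR-133a among 386 miRNAs, and miR-499 ranked number 334. For miR-133b the list was miR-193a-3p (r = 0.50, rho = 0.54), miR-324 (r = 0.48, rho = 0.30) and miR-139 (r = 0.46, rho = 0.45), and miR-133a ranked number 3. For miR-499 it was miR-6522 (r = 0.68, rho = 0.65), miR-760-3p (r = 0.64, rho = 0.58) and miR-128 (r = 0.56, rho = 0.55), while miR-133a ranked number 307. With Moderate replicate 5 included, r between miR-499 and miR-6522 was -0.10. The median r with all tested miRNAs was -0.012 for miR-133a, -0.0075 for miR-133b and -0.011 for miR-499.

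Marker miRNAs of other cell types were set beside the members, since testis holds vessels, smooth muscle and germ cells. In smooth muscle, miR-143 and miR-145 are the defining pair, and they summed to 83215 to 139866 in High and 85353 to 178449 in Moderate libraries, most of it miR-143. The 2 arms of miR-126 summed to 8981 to 14616 in High and 5125 to 14721 in Moderate libraries. The germ cell list, drawn up for meiotic and later germ cells, held miR-34b, miR-34c and the miR-449 family, with 1 of its 6 rows at 0. It summed to 90.5 to 265 in High and 22.8 to 185 in Moderate libraries. Which germ cell stages these testes held was not tested, so this sum is not a measure of germ cell content. Of the 3 tested rows of this list, 2 rose in limma, miR-34b and miR-34c, where 2.33% of all 387 rose. The same 2 rose without Moderate replicate 5, where 19 of all 385 tested miRNAs rose. miR-34b lay at 4.60 to 15.7 in High and 2.08 to 11.7 in Moderate libraries. Moderate replicate 14, highest in miR-133a, was also highest of all 30 libraries in the smooth muscle sum and in the endothelial sum, and Moderate replicate 10 ranked number 4 in both.

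Relations of the 3 members with 9 marker sums were computed, 27 in all, on levels that share the depth and scaling of their library. miR-133a followed the endothelial sum, which is the 2 miR-126 arms already listed as like it. Over 29 libraries r was 0.68 (permutation p = 9e-05, adjusted p = 0.00243) and rho 0.67 (permutation p = 0.000100, adjusted p = 0.00270), and r was 0.66 without the 2 farthest libraries (permutation p = 0.000230, adjusted p = 0.00621). With Moderate replicate 5 it was 0.83 (permutation p = 1e-05, which is the smallest that 100000 resamples allow; rho 0.70, permutation p = 4e-05). Within the diets r was 0.47 in High (permutation p = 0.0762) and 0.84 in the 14 other Moderate libraries (permutation p = 0.000280). For miR-133b with the endothelial sum, r over 29 libraries was 0.28 (permutation p = 0.141, adjusted p = 0.272) and rho 0.36 (permutation p = 0.0558, adjusted p = 0.166). Over all 30 libraries that r was 0.63 (permutation p = 0.00236, adjusted p = 0.0147). The relation of miR-133a with the smooth muscle sum was weaker, with r of 0.47 over 29 libraries (permutation p = 0.0101, adjusted p = 0.0684; rho 0.35, permutation p = 0.0615) and 0.25 without the 2 farthest (permutation p = 0.203).

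miR-499 ran against the smooth muscle sum, with r of -0.60 over 29 libraries (permutation p = 0.000680, adjusted p = 0.00918) and rho of -0.53 (permutation p = 0.00389, adjusted p = 0.0350). Without the 2 farthest libraries r was -0.45 (permutation p = 0.0168, adjusted p = 0.121), and within the diets it was -0.45 in High (permutation p = 0.0912) and -0.73 in the 14 other Moderate libraries (permutation p = 0.00269). Over all 30 libraries r was -0.55 (permutation p = 0.00121; rho -0.57, permutation p = 0.00138). The level of miR-499 followed the germ cell sum over 29 libraries, with r of 0.55 (permutation p = 0.00250, adjusted p = 0.0225) and rho of 0.60 (permutation p = 0.000790, adjusted p = 0.0107), and r was 0.57 without the 2 farthest (permutation p = 0.00217). Within the diets this r was 0.15 in High (permutation p = 0.603) and 0.42 in the 14 other Moderate libraries (permutation p = 0.135). Neither reached a permutation p under 0.05, and so few libraries cannot show that the relation is absent within a diet. Over all 30 libraries r of miR-499 with the germ cell sum was 0.71 (permutation p = 5e-05, rho 0.64, permutation p = 0.000240). The part of these cell types in the diet difference of miR-499 was not tested.

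**Figure D4:**
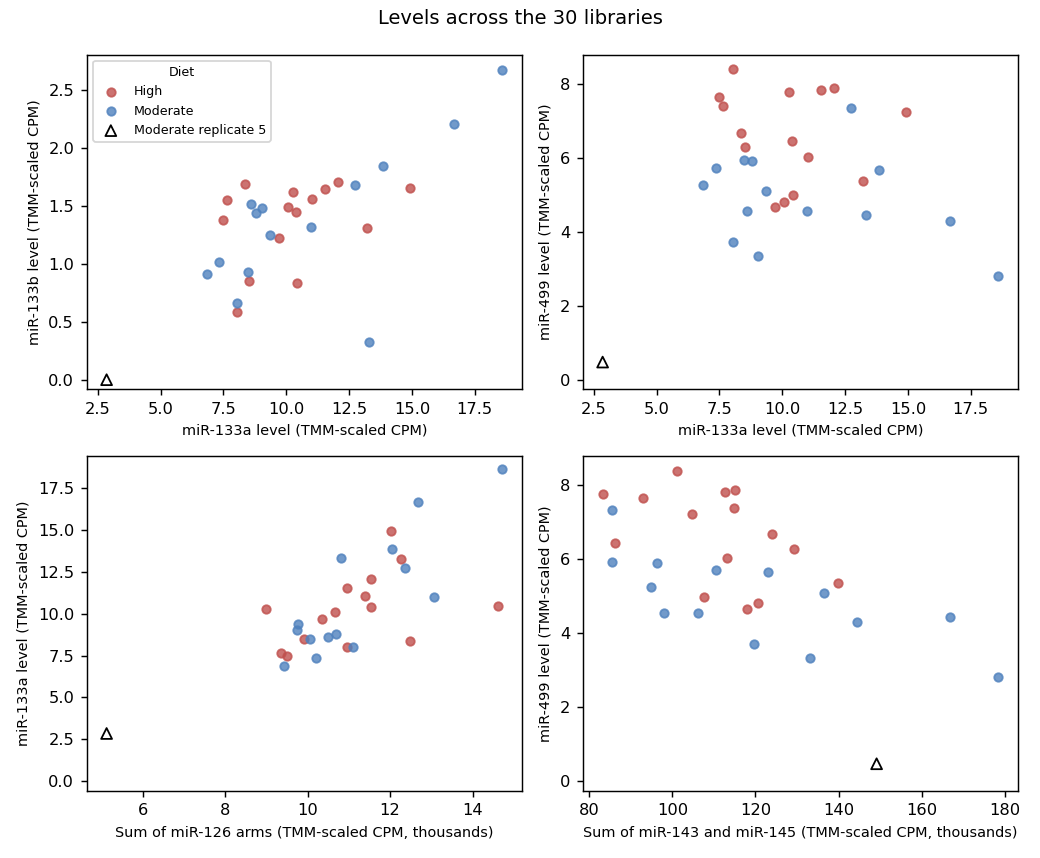
Levels across the 30 libraries in TMM-scaled CPM, with High libraries in red, Moderate in blue and Moderate replicate 5 as an open triangle: miR-133b and miR-499 against miR-133a (top), miR-133a against the summed arms of miR-126 and miR-499 against the sum of miR-143 and miR-145 (bottom). miR-133a is higher where the endothelial sum is higher (r = 0.68 over 29 libraries) and miR-499 is lower where the smooth muscle sum is higher (r = -0.60 over 29 libraries).

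The last comparison concerned miRNAs that act in muscle without being restricted to it, such as miR-486, miR-378 and the families of miR-29, miR-30 and miR-181. Of 38 rows on this list, 34 were tested, 2 rose, 0 fell and 32 did not pass in limma, where 2.33% of all 387 rose. Without Moderate replicate 5, 4 rose, 0 fell and 30 did not pass, where 19 of all 385 tested miRNAs rose and 26 fell. The median log2 fold change was 0.053, and 0.031 over all tested miRNAs. The 2 that rose were miR-22-3p (log2 fold change 0.30, adjusted p = 0.0260) and miR-27b (0.23, adjusted p = 0.0409), and both also passed without that library. miR-29c, which represses collagen genes, had the next smallest p (0.39, adjusted p = 0.0619; 0.28 and 0.00645 without Moderate replicate 5), with levels of 40.8 to 60.4 in High and 11.4 to 46.5 in Moderate libraries. miR-22-3p lay at 9812 to 16178 in High and 8044 to 12316 in Moderate libraries. The summed level of the striated muscle miRNAs was 24.1 at most in High and 24.3 at most in Moderate libraries.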

How the data were processed

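Total RNA went into Illumina TruSeq small RNA libraries, per the labels' protocols. FastQC 0.11.8, cutadapt 2.6, R 3.4 and edgeR 3.5 were used, per the submitters' processing notes. For alignment, the tool, reference and build were not given in the sources used here. Deposited values are a normalized signal, CPM with TMM-scaled library sizes, as worked out from the values: dividing by the value of 1 read gave whole reads for 95.3% of 18379 values above 0 (94.0% to 96.8% per library, tolerance 0.02 read), members included. Fractions occurred in 58 miRNAs, none of them a member.

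Diet was tested on log2(value + 0.5) in limma 3.58.1, fitted with a mean-variance trend, for miRNAs that reached 1 in 15 or more of the 30 libraries, two-sided, with Benjamini-Hochberg adjustment over all miRNAs tested. edgeR 4.0.16 (quasi-likelihood) and DESeq2 1.42.0 on recovered reads, rounded, were alternatives, beside other pseudocounts, filters, scalings and sets of libraries. Detection was compared by Fisher's exact test over all miRNAs, and single measures by permutation (100000 resamples). Tests were tried on simulated data. Named miRNAs are all members, the 3 most like each tested member, and list members past the threshold or with the smallest p. The members and lists were chosen with earlier results of these data known. Replicates were numbered in accession order, which pairs no libraries.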

Additional observations from a re-analysis of the deposited data

Results flagged for a closer look

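Levels of the 3 tested members were screened for extreme libraries within 12 sets, the 6 or 9 libraries of each diet whose labels give the same or different diets. The miR-133b level of High replicate 9 was 0.582, the lowest of 9 High libraries whose labels give different diets, with the next at 1.31 and the highest at 1.71. This level stands for 5 reads. Chance flags about 1 in 20 such sets.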

How the results depend on the processing

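No paired analysis was possible because the labels give no replicate numbers. The log2 fold change of miR-499 passed in limma with pseudocount 2 (0.43, adjusted p = 0.0387), with upper-quartile scaling (0.59, adjusted p = 0.0492), in edgeR (0.48; 0.44 in the 29 libraries without Moderate replicate 5) and in DESeq2 (0.47; 0.43 in 29). It also passed in the 23 libraries under 12 megareads other than Moderate replicate 5 (0.44). It did not pass with pseudocount 0.1, no filter, library totals, all 24 libraries under 12 megareads or depth as a covariate, and its sign was reversed with the diet of the titles (-0.089). When each library was left out in turn it ran from 0.41 to 0.63 and passed in 1 of 30 fits, without Moderate replicate 5; in the other 29 the lowest adjusted p was 0.0502. miR-133a ran from -0.050 to 0.13 in those fits and was -0.030 in edgeR and -0.032 in DESeq2, -0.072 and -0.079 in 29 libraries, -0.051 in the 11 libraries with the same diet in both labels other than Moderate replicate 5, and -0.038 in the 18 whose labels differ, where miR-133b was at -0.093. In those 23 libraries miR-133a was at -0.13 and miR-133b at -0.020. No call was made for either. miR-133b fell under the filter in the 12 libraries with the same diet in both labels.

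The count of miRNAs past the threshold, 19 in 30 libraries, was 0 without a filter, 0 with library totals (which moved the median log2 fold change to 0.21), 3 in libraries under 12 megareads (31 in the 23 other than Moderate replicate 5), 2 in the 6 deeper libraries, 0 with the titles, 0 in the 12, 11 or 18 libraries defined by the labels, 52 in DESeq2, and 51 in edgeR and 64 in DESeq2 on 29 libraries. It ran from 0, without High replicate 5, to 45, without Moderate replicate 5. With the titles, the percent of libraries with miR-133c detected differed by 6.67 points in place of -6.67.

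The correlation of miR-133a with miR-133b was 0.36 in High libraries, 0.35 without the 2 farthest libraries (Moderate replicates 5 and 14) and 0.25 without Moderate replicates 5, 10 and 14. That of miR-133a with miR-499 was -0.059 as Spearman's rho (-0.17 in 29 libraries), 0.33 with pseudocount 2, -0.24 without Moderate replicate 5, -0.17 in High, 0.56 in Moderate, -0.036 without the 2 farthest, 0.075 without Moderate replicates 5, 10 and 14, and 0.43 under 12 megareads. That of miR-133b with miR-499 was 0.25 as rho (0.17 in 29), 0.38 with pseudocount 2, -0.0092 without Moderate replicate 5, 0.14 in High, 0.58 in Moderate, -0.12 without the 2 farthest (Moderate replicates 5 and 6), 0.010 without these and High replicate 9, and 0.51 under 12 megareads. The cause of these changes was not tested. Median levels moved by less than 1 SD with library totals or without Moderate replicate 5. Members at 0 to 7 reads per library allow no fold change at this depth. Neither miR-133c nor miR-208a was detected in any library at the stricter detection limits, so no difference could be tested there. The edgeR and DESeq2 comparisons of 29 libraries, the sets of 6, 11, 18 and 23 libraries and the correlations without Moderate replicate 5 and the 2 farthest libraries were chosen after seeing the data.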

Other observations

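The ratio of miR-499 to miR-133a reads, which no scaling factor changes, was 0.405 at the lowest, 0.654 at the median and 1.04 at the highest in High libraries, and 0.151, 0.463 and 0.778 in Moderate libraries. The highest was High replicate 9 with 72 reads of miR-499 to 69 of miR-133a, and the lowest was Moderate replicate 14 with 21 to 139. This ratio was chosen after the levels were seen, and no test was made of it.

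Epithelial miRNAs of the miR-200 and miR-141 families, which mark ducts and other epithelia, summed to 11.5 to 17.4 in High and 10.7 to 24.8 in Moderate libraries. Over 30 libraries the log2 level of miR-499 had r of -0.43 with this sum (permutation p = 0.0139, adjusted p = 0.0341 over 27 relations) and rho of -0.51 (permutation p = 0.00452), while r was -0.39 without Moderate replicate 5 (permutation p = 0.0363, adjusted p = 0.140). The red blood cell miRNAs miR-451 and miR-144 summed to 96.9 at the median in High and 80.4 in Moderate libraries, with r of 0.40 with miR-499 over 29 libraries (permutation p = 0.0308, adjusted p = 0.139).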
